A study of Mus musculus with 6 samples.

Results

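The neuronal RNA-binding and splicing factors described here are 10 genes of the 37761 in the table, taken by symbol: Elavl2, Elavl3, Elavl4, Nova1, Nova2, Rbfox1, Rbfox2, Celf3, Celf4 and Srrm4. All 10 were found and all 10 passed the filter on low values, set at 10 normalized counts or more in 3 or more libraries. RNA sequencing was done on 6 libraries of wild-type mice. The embryonic group held 3 libraries made from the entire pancreas at e15.5, and the adult group held 3 libraries of pancreatic islets freed with collagenase from mice of 12 weeks. The effects of tissue, isolation and age cannot be told apart, since all 3 change from one group to the other. No label states that replicates were different animals. The p-values therefore rest on a spread among libraries that may be technical only.

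These proteins bind RNA in the nucleus and cytoplasm of neurons and are shared in part with pancreatic endocrine cells, which use much of the neuronal secretory program. The ELAVL proteins (Hu proteins) bind AU-rich and U-rich stretches and act on both splicing and mRNA stability. The NOVA, RBFOX and CELF proteins bind short motifs beside alternative exons, and SRRM4 (nSR100) favours the inclusion of microexons. Neurons of the autonomic ganglia in the pancreas express many of the same genes, so a level in either tissue can come from more than 1 cell type.

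Values are the authors' normalized counts, that is reads per gene divided by a size factor of the library, as mean ± SD with n = 3 per group. Assigned reads ranged from 35059950 to 47346870 per library, so 1 normalized count was about 1 read. Calls were made at a Benjamini-Hochberg adjusted p under 0.05 with limma-trend, a linear model on log2(value + 1) fitted to all 21653 genes that passed the filter. Every log2 fold change is the islet level minus the embryonic one on that scale, so that changes of low genes are understated, and a fold given for a rise or a fall is its size in that direction. "Rose" and "fell" mean called higher or lower in the islets. In bulk RNA, fewer cells of a type and less RNA per cell cannot be told apart. The labelled tissues held their markers: all 14 endocrine markers rose, with a median log2 fold change of 4.03, and all 9 mesenchyme markers fell, with a median of -6.59. Summed acinar markers were 254710 to 648306 in the islets, highest in islet library 2, against 102598 to 142584 in embryonic pancreas. The islet libraries thus also held exocrine RNA. The 9 acinar markers did not move together: 4 rose, 4 fell and 1 was not called, with a median log2 fold change of -0.28. Pnlip and Cela1 rose (11.53 and 4.23), whereas Rbpjl and Ptf1a fell (-6.91 and -3.66), so the sums do not rank acinar content between the tissues. Embryonic library 3 was the only library with 0 reads among those set aside for low alignment quality, against 1264897 to 2083120 in the others.

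Celf3, Celf4, Nova1, Nova2 and Srrm4 rose, Rbfox1 and Rbfox2 fell, and the ELAVL genes moved both ways, Elavl4 rising and Elavl2 and Elavl3 falling. Thus 10 of 10 were called where 72.8% of all genes tested were, 6 rose where 36.2% of all genes did, and 4 fell where 36.6% did, so that a call by itself sets none of them apart. The 3 values of each group did not overlap for 9 of the 10, the exception being Elavl3, and for 77.1% of all genes tested. A change of at least 1 on the log2 scale was seen in 8 of the 10 and in 49.1% of all genes. The median log2 fold change was 0.88 over the 10 genes and -0.03 over all genes tested.

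**Figure D1:**
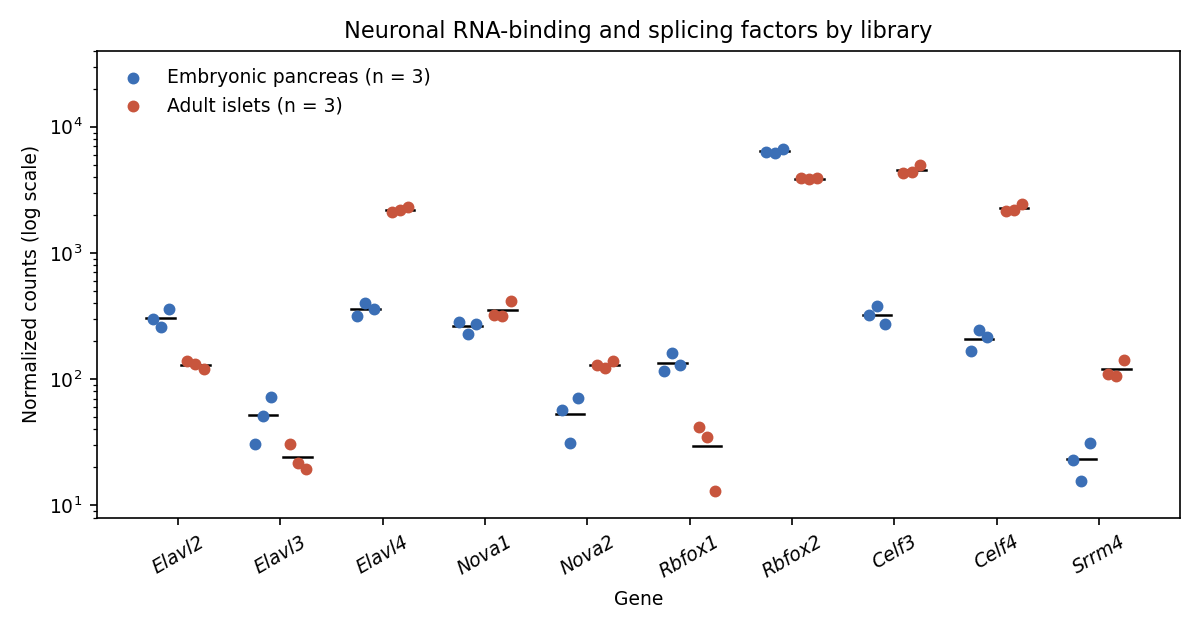
Normalized counts (log axis) of the 10 genes in each library; blue points are the 3 embryonic pancreas libraries, red points the 3 adult islet libraries, and black bars the group means. The red points of Elavl4, Celf3 and Celf4 lie between 2094 and 4995, all above the embryonic points of the same gene, and Elavl3 is the gene whose groups overlap.

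Within the ELAVL family only Elavl4 rose. Elavl4 encodes HuD, which stabilises mRNAs of differentiated neurons. It stood at 314, 398 and 361 normalized counts in embryonic libraries 1 to 3, against 2094, 2194 and 2322 in islet libraries 1 to 3. All islet values thus lay far above all embryonic values, and the rise was 6.17-fold (log2 fold change 2.62 with SE 0.11, adjusted p = 9.7e-08 by limma-trend). Elavl2, which encodes HuB and is also made in gonads, went the other way. It was at 297, 257 and 361 in embryonic pancreas and at 138, 132 and 121 in islets, with no overlap (log2 fold change -1.21, SE 0.17, adjusted p = 0.00019 by limma-trend). Elavl3, which encodes HuC and is a widely used marker of neurons, was at 30.7, 51.1 and 72.8 in embryonic pancreas and at 30.8, 21.8 and 19.3 in islets. The groups met at the first library of each, and the call rested on 18 to 89 reads per library (log2 fold change -1.02, 95% confidence interval -1.84 to -0.19, limma-trend adjusted p = 0.031). It was no longer called without embryonic library 3, the highest (log2 fold change -0.73, adjusted p = 0.091), or without embryonic library 2 (-0.98, adjusted p = 0.069), islet library 2 (-0.97, adjusted p = 0.078) or islet library 3 (-0.88, adjusted p = 0.091).

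Elavl1, the paralogue that encodes the ubiquitous HuR and is not among the 10, fell from 4004 ± 412 to 2444 ± 101 (log2 fold change -0.71, limma-trend adjusted p = 0.00015). Levels of different genes are compared per kb of exon, except in the log2 ratios of gene pairs. The length used is the union of the exons annotated for each gene. Per kb, Elavl2, Elavl3 and Elavl4 together made up 22.4 ± 2.80% of the output of the 4 Elavl genes in embryonic pancreas and 64.5 ± 0.361% in islets. Among those 3, the share of Elavl4 was 59.2, 65.8 and 55.4% in embryonic libraries 1 to 3 and 94.8, 95.5 and 96.1% in the islet libraries. The log2 ratio of Elavl4 to Elavl1 within a library was -3.76, -3.15 and -3.54 in embryonic pancreas and -0.15, -0.17 and -0.12 in islets, a shift of 3.33. In such a ratio the size factor of a library cancels apart from the pseudocount of 1. All pair ratios use normalized counts without exon length. Only their shift between the tissues is read, not which gene of a pair is higher. Per kb, Elavl4 was at 66.4 and Elavl1 at 386 in embryonic pancreas, against 409 and 236 in islets. The ratios of Elavl2 and of Elavl3 to Elavl4 shifted by -3.83 and -3.64. Ratios of 8 gene pairs were compared by a two-sided exact permutation test over the 6 libraries, which for 3 against 3 cannot go below p = 0.1. Each of the 8 reached that smallest value, with adjusted p = 0.1 over the 8 pairs, so none can pass the threshold in this design.

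**Figure D2:**
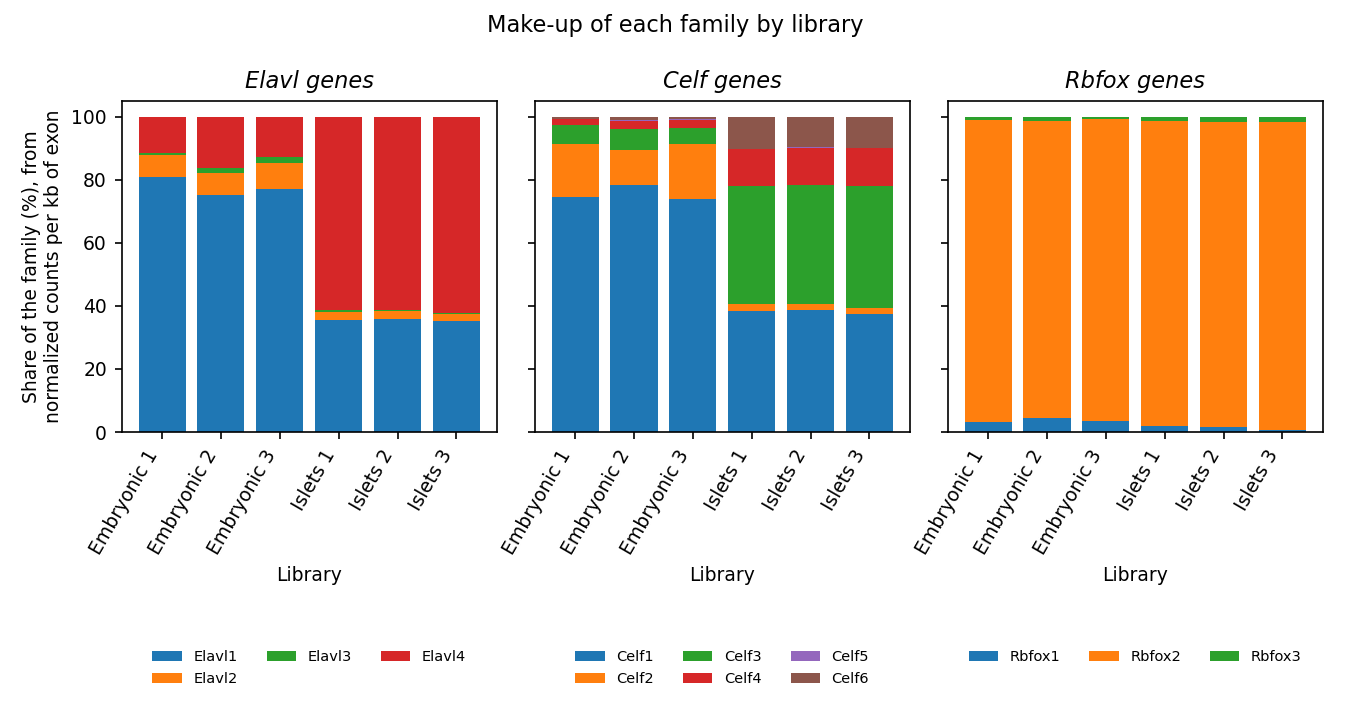
Share (%) of each gene in the summed normalized counts per kb of exon of its family, for each of the 6 libraries. Elavl4 (red, left panel) and Celf3, Celf4 and Celf6 (green, red and brown, middle panel) take most of the islet bars, and Rbfox2 (orange, right panel) takes 94.1% or more of every bar.

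The CELF genes showed the steepest rises of the 10. Celf3 and Celf4 belong to the brain-enriched branch of the family, whose proteins bind U- and G-rich elements near alternative exons. Celf3 was at 321, 379 and 273 normalized counts in embryonic libraries 1 to 3, against 4317, 4386 and 4995 in islet libraries 1 to 3, a 14.1-fold rise (log2 fold change 3.82 with SE 0.13, adjusted p = 3.2e-08 by limma-trend). Celf4 was at 167, 246 and 214 against 2150, 2184 and 2423, a 10.8-fold rise (log2 fold change 3.44 with SE 0.15, adjusted p = 1.1e-07 by limma-trend). For both, all islet values stood far above all embryonic values, and the highest embryonic value was in library 2. Elavl4 was also highest there, at 398, and so was the summed level of the 14 endocrine markers, at 32713 against 24054 and 21406 in the other embryonic libraries. The other rising genes were lowest in that library, Nova1 at 226, Nova2 at 31.3 and Srrm4 at 15.7, and Rbfox1, which fell, was highest there at 160. The part of endocrine cell content in these levels was not tested. The log2 ratio of Celf3 to Celf4 was 0.63 ± 0.29 in embryonic pancreas and 1.02 ± 0.02 in islets, a shift of 0.38.

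Among the other CELF genes, Celf6 of the same branch rose and Celf2 fell. Celf6 went from 26.9, 45.9 and 29.4 normalized counts to 782, 757 and 850, a log2 fold change of 4.54 (limma-trend adjusted p = 2.0e-07, SE 0.22). Celf2, a broadly expressed member also active in heart and muscle, fell from 3947 ± 726 to 1195 ± 38.7 (log2 fold change -1.71). Celf1, the ubiquitous member, was at 6478 ± 489 and 7095 ± 323 and was not called (95% confidence interval of the log2 fold change -0.07 to 0.33). Celf5 was low in both tissues, at 10.8 ± 4.37 and 11.5 ± 6.26, and was not called. Per kb of exon, Celf3, Celf4, Celf5 and Celf6 made up 9.31 ± 1.12% of the output of the 6 Celf genes in embryonic pancreas and 59.8 ± 0.723% in islets.

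Both RBFOX members fell. RBFOX proteins recognise the element UGCAUG in introns beside regulated exons. Rbfox2, the member found in many cell types, was at 6304, 6198 and 6639 normalized counts in embryonic libraries 1 to 3, against 3896, 3853 and 3903 in the islets. The groups were tight and apart, with a log2 fold change of -0.72 (SE 0.07, limma-trend adjusted p = 2.6e-05). Rbfox1, whose protein is made mainly in neurons, heart and skeletal muscle, was at 115, 160 and 128 in embryonic pancreas and at 41.7, 34.7 and 12.9 in islets. The third islet library was the lowest, with 12 reads, and the fall was 4.85-fold (log2 fold change -2.28 with SE 0.41, adjusted p = 0.00092 by limma-trend) and remained called without that library (-1.78, adjusted p = 0.00044). The log2 ratio of Rbfox1 to Rbfox2 was -5.76, -5.27 and -5.68 in embryonic pancreas and -6.51, -6.75 and -8.14 in islets, a shift of -1.56 in which the third islet library stood lowest. Rbfox3, which encodes the neuronal antigen NeuN and is not among the 10, was at 53.3 ± 13.9 and 45.9 ± 6.52 and was not called (95% confidence interval -0.81 to 0.43). Per kb, Rbfox2 made up 95.2 ± 0.954% of the 3 Rbfox genes in embryonic pancreas and 97.0 ± 0.493% in islets.

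Both NOVA genes rose. NOVA proteins bind clusters of YCAY in pre-mRNA, and antibodies against them mark a paraneoplastic motor disorder. Nova1 was at 285, 226 and 273 normalized counts in embryonic libraries 1 to 3, against 321, 316 and 414 in islet libraries 1 to 3. Its groups lay close together without overlap, and the rise was 1.33-fold (log2 fold change 0.42, 95% confidence interval 0.05 to 0.78, limma-trend adjusted p = 0.041). That call ended without embryonic library 2 (log2 fold change 0.32, adjusted p = 0.089) and without islet library 1 (0.47, adjusted p = 0.059), 2 (0.48, adjusted p = 0.054) or 3 (0.29, adjusted p = 0.14). It also ended when size factors left out each group's 20 most abundant genes (0.18, adjusted p = 0.35), which moved the median change over all genes from -0.03 to -0.26. Nova2 was at 56.7, 31.3 and 71.1 in embryonic pancreas and at 130, 122 and 138 in islets (log2 fold change 1.35 with SE 0.30, adjusted p = 0.0032 by limma-trend). The embryonic values of Nova2 were spread widely, with library 2 lowest, while its islet values lay close together. The log2 ratio of Nova1 to Nova2 went from 2.35 ± 0.45 to 1.41 ± 0.14, without overlap, at the smallest exact permutation p of 0.1. The annotation places the lincRNA Gm26821 on the opposite strand over 31.7% of the exonic length of Nova2. Gm26821 has no values of its own among the genes measured here. As no source states a stranded kit, reads from that stretch cannot be assigned to either gene, and some may be counted under Nova2.

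Srrm4 rose but stayed low. It was at 23.1, 15.7 and 31.1 normalized counts in embryonic libraries 1 to 3, against 110, 106 and 143 in islet libraries 1 to 3, a 5.10-fold rise (log2 fold change 2.35 with SE 0.30, adjusted p = 9.6e-05 by limma-trend) on 77 and 340 reads per group. All islet values lay well above all embryonic ones. Its relative Srrm3, which also promotes microexon inclusion and is known from neurons and islets, was at 27.9, 32.3 and 35.2 in embryonic pancreas and at 503, 462 and 557 in islets (log2 fold change 3.96 with SE 0.18, adjusted p = 1.4e-07 by limma-trend). The log2 ratio of Srrm4 to Srrm3 was thereby -0.48 ± 0.45 in embryonic pancreas and -2.08 ± 0.12 in islets. The general splicing cofactor Srrm2 was not called, at 12248 ± 3315 and 12051 ± 1730, and Srrm1 fell modestly (log2 fold change -0.47, limma-trend adjusted p = 0.0070). Over the 9 paralogues outside the 10, 2 rose, 3 fell and 4 were not called, where 36.2% of all genes tested rose and 36.6% fell.

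**Figure D3:**
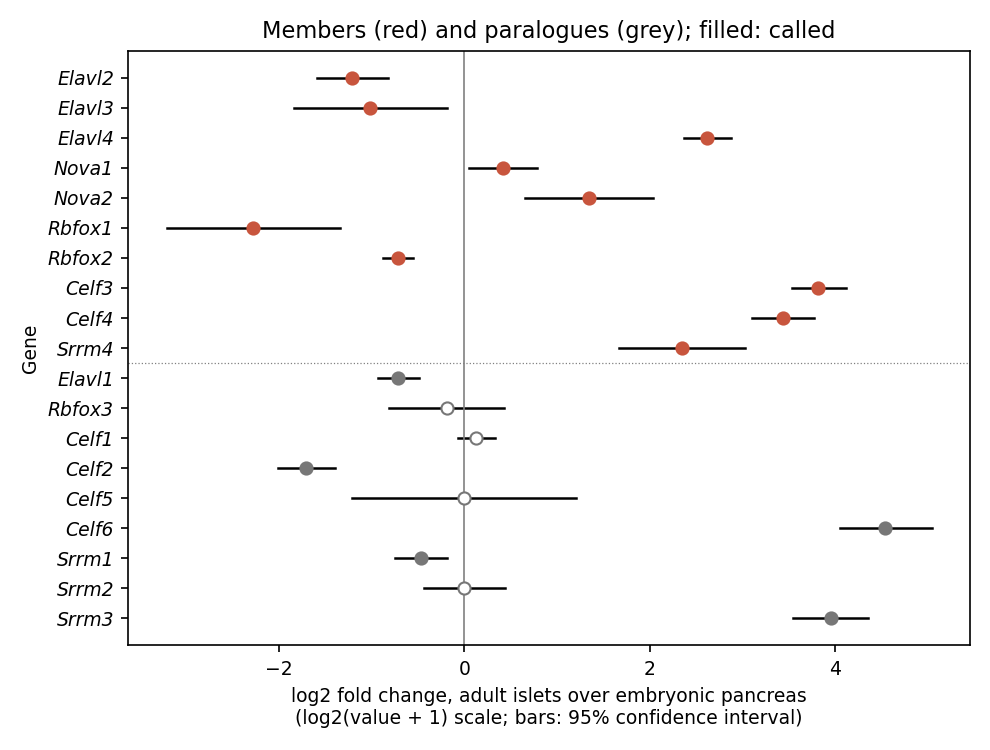
log2 fold change of adult islets over embryonic pancreas with its 95% confidence interval for the 10 genes (red) and 9 paralogues (grey); filled points were called by limma-trend. Celf6 (4.54), Srrm3 (3.96), Celf3 (3.82) and Celf4 (3.44) stand at the right, and Rbfox1 (-2.28) at the left.

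Ranked per kb of exon, the order of the 10 changed between the tissues. In the embryonic pancreas Rbfox2 led with 784 ± 28.3 normalized counts per kb, followed by Elavl4 (66.4 ± 7.77) and Celf3 (59.2 ± 9.67), whose values overlapped. Elavl2, Rbfox1, Nova1 and Celf4 came next, between 36.7 and 24.4 on average, and each overlapped its neighbour in the order. Elavl3, Nova2 and Srrm4 closed it at 7.48, 6.34 and 2.68, the first pair overlapping and Srrm4 standing below Nova2. In the islets Celf3 led with 834 ± 68.2, followed by Rbfox2 (477 ± 3.34), Elavl4 (409 ± 21.2) and Celf4 (262 ± 17.3), each separate from the next. Nova1 followed at 40.1 ± 6.32. Elavl2, Nova2 and Srrm4 came after it, between 15.7 and 13.8 on average, and overlapped in that order, and Rbfox1 and Elavl3 were last at 6.77 and 3.48, also overlapping. The exon union counts every annotated exon, so a gene that uses only short isoforms reads low on this scale.

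By the GENCODE M21 annotation (build GRCm38, also called mm10), Elavl2 and Elavl4 lie on the minus strand of chromosome 4, at 91250763 to 91400785 and 110203722 to 110351909. Elavl3 is on chromosome 9 (22015005 to 22052023, minus), Nova1 on chromosome 12 (46694517 to 46818929, minus) and Nova2 on chromosome 7 (18925888 to 18965319, plus). Rbfox1 spans 1526172 bp of chromosome 16 (5885355 to 7411526, plus) and Rbfox2 is on chromosome 15 (77078990 to 77307004, minus). Celf3 is on chromosome 3 (94478295 to 94492198, plus), Celf4 on chromosome 18 (25477632 to 25754157, minus) and Srrm4 on chromosome 5 (116439275 to 116591817, minus). Apart from Nova2, the 10 genes share at most 3.7% of their exonic length with another gene. The antisense RNA Srrm4os overlaps Srrm4 by 68 exonic bp and was itself not called, at 7.15 ± 3.78 and 11.6 ± 0.734 normalized counts.

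Ganglion neurons and Schwann cells, both derived from neural crest, are other cells of the pancreas that could hold these RNAs, and their markers moved in both directions. Of 19 neuron markers 18 were tested, of which 8 rose, 5 fell and 5 were not called, with summed levels of 5882 to 6636 before birth and 12483 to 14124 in islets. Several of the markers that rose, such as Th and Vip (log2 fold changes 3.70 and 5.03), are also known from endocrine cells or nerve fibres of the islet. Vip, at 2935, 2155 and 881 in the islets, was again lowest in the third library. Hand2, a transcription factor of sympathetic neurons that mesenchyme also expresses, fell from 1096, 1109 and 1034 to 40.6, 35.7 and 19.3. Stmn2 fell as well, from 1020, 439 and 1047 to 113, 100.1 and 46.1. Of 8 Schwann cell markers 7 fell and 1 rose, with summed levels of 5013 to 5817 and of 1016 to 1662. None of these neuron or Schwann cell markers was at 0 in all libraries of a group. In the third islet library, where Rbfox1 (12.9) and Elavl3 (19.3) were lowest, Hand2, Stmn2, Sox10 (24.7 against 70.3 and 44.6) and S100b (17.2 against 20.9 and 28.8) were lowest too. Not all neuron markers did so: Th (995 against 897 and 786) and Rbfox3 (52.6 against 39.5 and 45.6) were highest in that library. The same library was also lowest among the islets for summed acinar (254710), mesenchyme (1397), endothelial (7764) and immune (1158) markers. The part of neurons and Schwann cells in the levels of Rbfox1, Elavl3 and the other 8 genes was not tested.

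**Figure D4:**
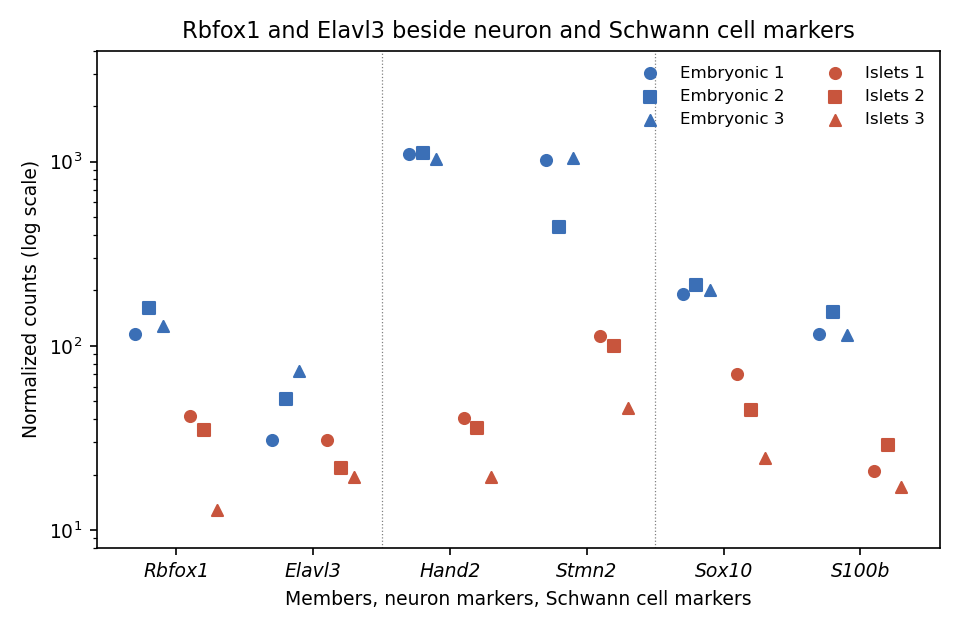
Normalized counts (log axis) of Rbfox1 and Elavl3, the neuron markers Hand2 and Stmn2, and the Schwann cell markers Sox10 and S100b in each library; colour marks the tissue and symbol the library. The red triangle (islet library 3) is the lowest islet point for all 6 genes, at 12.9 for Rbfox1. The neuron markers Th and Rbfox3, not drawn, were highest in that islet library.

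Other regulators of splicing with a restricted expression moved both ways. On a list of 22, 9 rose, 11 fell and 2 missed the threshold, with a median log2 fold change of -0.48. Over all genes tested 36.2% rose and 36.6% fell, and the counts of every gene list are to be read beside those shares. Rbm20, a regulator of titin splicing in muscle, rose from 41.2 ± 4.11 to 552 ± 77.5 and the testis and brain factor Rbm11 from 21.1 ± 3.37 to 180 ± 18.5 (log2 fold changes 3.71 and 3.04). Mbnl3, a member of the muscleblind family, fell from 2124 ± 154 to 76.0 ± 38.7 and Qk, the quaking gene of glia and mesenchyme, from 8851 ± 387 to 2332 ± 110 (log2 fold changes -4.91 and -1.92). In neurons the repressor PTBP1 gives way to its paralogue PTBP2 as cells differentiate. Here Ptbp1 went from 8218 ± 960 to 5828 ± 339 and Ptbp2 from 4091 ± 447 to 1658 ± 29.2, both falling (log2 fold changes -0.49 and -1.30), where 20.7% of the exonic length of Ptbp1 is shared with other annotated genes. The log2 ratio of Ptbp2 to Ptbp1 was -0.88, -1.35 and -0.79 in embryonic libraries 1 to 3 and -1.72, -1.78 and -1.93 in the islets, so that Ptbp2 was lower relative to Ptbp1 in every islet library.

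General splicing factors were mostly lower in the islets. Of 29 SR proteins, hnRNPs and spliceosome components 23 fell, 1 rose and 5 were not called, with a median log2 fold change of -0.58. The SR protein genes Srsf1 and Srsf3 fell from 24582 ± 3677 to 10507 ± 346 and from 16047 ± 3194 to 7142 ± 148 (log2 fold changes -1.22 and -1.15). Prpf8, a core protein of the spliceosome, was the 1 that rose (log2 fold change 0.37), and it was not called under quantile normalization or when scaled without the 20 most abundant genes. Of 19 factors of mRNA stability and translation 7 rose, 8 fell and 4 were not called. Cpeb1, which controls translation through cytoplasmic polyadenylation, rose from 18.8 ± 5.62 to 3394 ± 259 and its relative Cpeb3 from 161 ± 22.4 to 1165 ± 104 (log2 fold changes 7.47 and 2.85). Zfp36l1, whose protein speeds the decay of AU-rich mRNAs, fell from 1083, 1118 and 1321 to 167, 225 and 126 (log2 fold change -2.79), with 55.9% of its exonic length shared with other annotated genes. Syncrip, an hnRNP-like protein of mRNA transport, fell from 13376 ± 611 to 5334 ± 191 (log2 fold change -1.33).

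**Figure D5:**
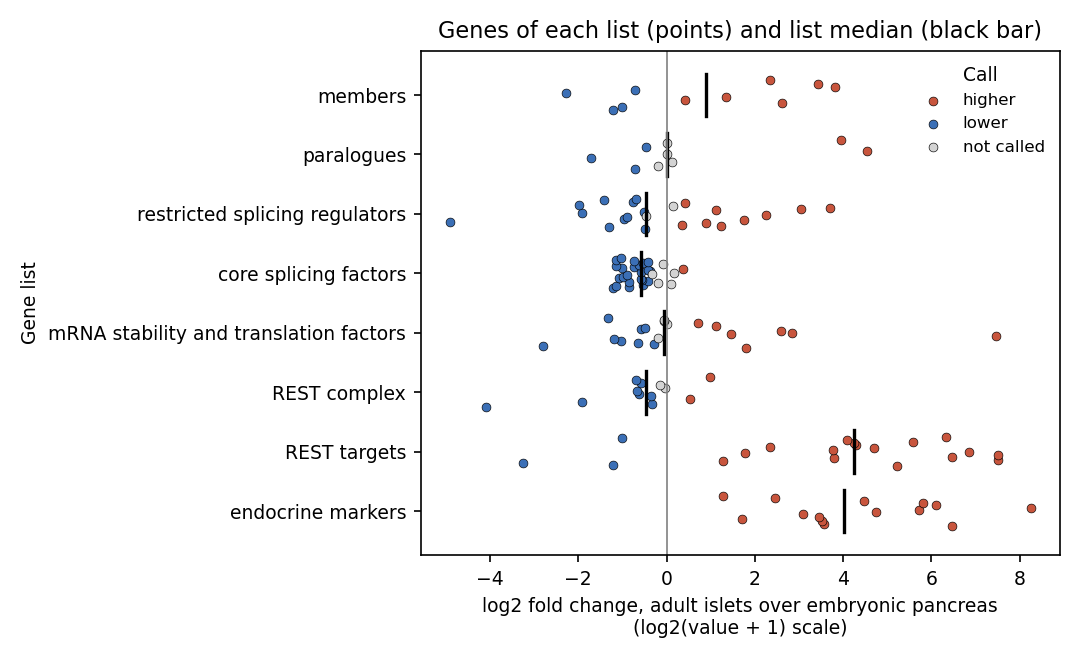
log2 fold change of each tested gene (point) by gene list, with the list median as a black bar; red, blue and grey mark higher, lower and not called in the islets. The 10 genes spread from -2.28 to 3.82, and the core splicing factors gather around -0.58. The REST targets spread from -3.25 to 7.52, with a median of 4.24.

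Rest, the repressor that silences neuronal genes in other cells through a DNA element called RE1, was much lower in the islets. It stood at 5294, 5712 and 5680 normalized counts in embryonic libraries 1 to 3, against 353, 411 and 241 in islet libraries 1 to 3 (log2 fold change -4.08 with SE 0.17, adjusted p = 1.1e-07 by limma-trend). Its corepressor gene Rcor2 fell too (log2 fold change -1.91), while Rcor3 (0.53) and the phosphatase gene Ctdspl (0.99) rose; of the 12 genes of the complex 8 fell, 2 rose and 2 were not called. Among textbook targets of REST, 19 were tested, of which 16 rose and 3 fell, with a median log2 fold change of 4.24. Vgf and Syt4 rose from 18.4 ± 8.52 to 3269 ± 290 and from 86.6 ± 12.2 to 15841 ± 898.5, whereas Stmn2 fell as given above and Scn2a fell from 153 ± 17.7 to 67.1 ± 18.3. This list shares Chga with the endocrine markers and Stmn2 with the neuron markers. Endocrine and mesenchymal content differ between the tissues as stated above, and their part in the levels of Rest was not tested.

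RE1 sites near the 10 genes were looked for after the fall of Rest had been seen. In neurons SRRM4 is known to alter the splicing of Rest, and REST to repress Srrm4. The search took TTCAGCACC, any 2 letters and then GGACAG on either strand, within 10 kb on each side of the annotated gene start. Among 18806 protein-coding genes searched, 0.372% held an exact match and 1.61% a match with at most 1 letter off. Of the 10 genes 0 held an exact match and 3 a match with at most 1 letter off, namely Celf3, Elavl3 and Srrm4. With up to 2 letters off, 4 of the 10 matched, Rbfox1 being the fourth, against 8.76% of all genes searched. Among 19 REST targets searched the same way 17 matched with at most 1 letter off. Those genes were listed as known targets of a repressor that acts through this element, so their count is no independent comparison. Of 14 endocrine markers 2 held an exact match, 3 one with at most 1 letter off and 4 one with up to 2 off. Of 29 core splicing factors 0 matched with at most 1 letter off and 2 with up to 2 off. The sites are shown to let the letters be compared, with the compared letters in capitals, the 2 free letters and the flanks in lower case, read 5′ to 3′ in the direction of the element, from RefSeq's GRCm38.p6 sequence.
Celf3: ctctTCCAGCACCggGGACAGctccaacc
Elavl3: aggcTTCAGCACCacAGACAGcggtctga
Srrm4: acgtTTCAGCACTtcGGACAGcgccccag
Rbfox1: ggatTTCAGCACCatGGATAAccatcaag
Celf6: ggctTTCAGCACCgcGGACAGcggcggcg
Celf5: gcgcTTCAGCACCgcGGACAGcggcacca

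Counted from 1 at the first capital, with the motif's letter first, the site of Celf3 differs from the motif by T2C, that of Elavl3 by G12A, that of Srrm4 by C9T, and that of Rbfox1 by C15T and G17A. The match of Celf3 is at chr3:94478012-94478028 on the plus strand, centred 275 bp before the gene start. That of Elavl3 is at chr9:22053870-22053886 on the plus strand, 1855 bp before the start. That of Srrm4 is at chr5:116591499-116591515 on the minus strand, 310 bp after the start and in an exonic UTR. That of Rbfox1 is at chr16:5893362-5893378 on the plus strand, in an intron 8015 bp after the start. The paralogues Celf6 (chr9:59578435-59578451, plus strand, coding exon) and Celf5 (chr10:81477742-81477758, minus strand, intron) hold exact matches. The genes with such letters did not share a direction: Celf3, Srrm4 and Celf6 rose, Elavl3 and Rbfox1 fell, and Celf5 and Rbfox3, the latter with 2 letters off (T1G and T2G), were not called. A match describes these letters only, and whether REST binds there was not tested.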

How the data were processed

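Messenger RNA was measured in 6 mouse libraries, 3 of whole pancreas at e15.5 and 3 of adult islets. The tools named in the submitters' processing notes are TopHat 1.3.2, CASAVA 1.8.2, Cufflinks 1.2.1 and an unversioned DESeq2, with build mm10. Which program counted reads, and over which annotation, is not given in the sources used here. One table deposited by the authors holds a normalized signal per gene and library; that each value is a read count over 1 size factor per library was found from the values. Per the file headers the same table holds the authors' log2 fold change, p-value and adjusted p-value, fold change (a ratio), test score and mean signal, of which none is used for a result here. Each library's values were whole multiples of 1 step (within 0.01 reads for 100% of genes), so reads could be recovered; in islet library 2 the step, 0.992, is so near 1 that this cannot be told from rounding. The 5 entries that name no gene held 40.7 to 54.6% of reads and were left out.

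The test was limma-trend (limma 3.58.1, R 4.3.3) on log2(value + 1), with a filter of at least 10 normalized counts in 3 libraries. It had 4 residual degrees of freedom and Benjamini-Hochberg adjustment over 21653 genes. The procedure was tested on simulated data in which far fewer genes changed than were called here. That run therefore cannot tell how scaling behaves under so broad a change. Count models (edgeR 4.0.16, DESeq2 1.42.0) on recovered reads were alternatives. Exon lengths and overlaps came from GENCODE M21, and the RE1 search, chosen after values were seen, used the RefSeq GRCm38.p6 genome. Ratios of 8 gene pairs, taken without exon length, used exact permutation tests (SciPy 1.17.1). Replicate libraries differed by more than sampling noise (chi-square per gene with a mean of 17.5 to 57.2 and a median of 1.09 to 4.83 over the 6 pairs within groups, the mean lying far above the median in every pair). Named genes are the 10 members, the genes of the pairs and Rest. Of some lists, up to 2 called genes with the largest rise and fall and a mean of at least 100 were also named. These were the lists of paralogues, other RNA regulators, REST genes, and neuron, Schwann cell and acinar markers. Genes of the other marker lists were not named by this rule. Other paralogues, Rbfox3, Sox10 and Srrm4os were named after their values were seen. Gm26821, which has no values here, was named for its overlap with Nova2. One marker gene is not reported here. The members, lists and tests were chosen with earlier results of these data known.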

Additional observations from a re-analysis of the deposited data

How the results depend on the processing

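The 10 genes kept their direction under all 17 alternatives run, or 16 for Elavl3. Of these genes 8 stayed called throughout, and Elavl3 and Nova1 each lost the call under 6. Besides the values given with the results, Elavl3 ended at an adjusted p of 0.2 with quantile normalization (log2 fold change -0.55) and 0.053 with upper quartile scaling (-0.91), and it could not be tested with a minimum of 50 normalized counts; over its 16 alternatives adjusted p ranged from 0.0092 to 0.2. Nova1 had an adjusted p of 0.086 by edgeR on recovered reads (log2 fold change 0.36), in a range of 0.014 to 0.35. The count of the 10 called was 5 to 6 higher and 3 to 4 lower when each library was left out. The number of core splicing factors called higher, 1, became 2 with a minimum of 50, a pseudocount of 0.1 or upper quartile scaling, 0 with quantile normalization or scaling without the 20 most abundant genes, and, with a library left out, 1 to 3, the 3 being without embryonic library 2; those called lower numbered 22 to 25. REST complex genes called higher went from 2 to 1 under scaling without the 20 most abundant genes. The numbers of the replicates do not pair the samples (correlation of same-numbered deviations 0.04, 0.08 and 0.01), and with the replicate number as a block 6 of the 10 were again higher and 4 lower, with 15612 genes called in all. Depth limits Elavl3, Srrm4, Rbfox1 and Nova2 most, each with 30 reads or fewer in at least 1 library.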
